A study of Arabidopsis thaliana with 8 samples.

Results

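The sdg8 sdg26 mutant of Arabidopsis thaliana, which carries mutations in 2 histone methyltransferase genes, was compared with wild type (Col) across all genes. The comparison takes 4 of the 8 single-colour Agilent arrays of the series, 2 for sdg8 sdg26 and 2 for wild type. The other 4 arrays, 2 each of the sdg8 and sdg26 single mutants, were used to estimate the spread between arrays and are set beside the results below. All groups were the aerial part of seedlings aged 6 days, grown at 22 °C with 16 h of light and 8 h of darkness. The labels name the genotypes and give neither the alleles nor the number of plants in a sample. A probe was kept where the scanner software marked it as well above background on both arrays of sdg8 sdg26 or of wild type, which left 20111 genes for the test of 25383 genes with a probe. A level is the log2 signal of a gene's probe after the 75th percentile of its array was subtracted, so 0 marks a probe at that percentile. Differences are log2 differences with their standard error from a limma fit over the 8 arrays, with 2 arrays in each group, and a gene is called higher or lower where its Benjamini-Hochberg adjusted p was under 0.05. With 2 arrays against 2, an exact permutation test of 1 gene could not go below 0.333, so calls rest on a spread pooled over arrays and genes.

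SDG8 and SDG26 encode SET-domain proteins that methylate a lysine of histone H3 in the body of transcribed genes. SDG8 is known for keeping FLOWERING LOCUS C (FLC) active, and plants without it flower early. Plants without SDG26 flower late. FLC and its relatives are MADS-domain proteins that repress FT and SOC1, the genes through which photoperiod and other cues start flowering.

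Both targeted genes were low in the mutant. SDG8 had levels of -2.71 and -2.95 in sdg8 sdg26 and of -0.63 and -0.36 in wild type, 5.03-fold lower (adjusted p = 0.00163). SDG26 had levels of -4.0 and -5.0 against -1.09 and -1.04, 10.9-fold lower (adjusted p = 0.00327). Both transcripts were still well above background on both sdg8 sdg26 arrays. For the tissue label, 11 genes of leaves, epidermis and stomata were examined. They cannot show whether root was also present, and root markers are given further below. All 11 passed the filter, and their summed linear level was 191 and 253 on the wild-type arrays and 201 and 132 on the sdg8 sdg26 arrays.

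The wild-type arrays lay on slides 1 and 2 and both sdg8 sdg26 arrays on slide 4, together with both sdg26 arrays, while both sdg8 arrays lay on slide 3. Slide and genotype therefore cannot be told apart in the comparison with wild type. The share of probes well above background was 77.2% to 79.0% on the 4 arrays of slide 4 and 72.1% to 75% on the other 4. Replicate arrays correlated at 0.988 in wild type and 0.986 in sdg8 sdg26.

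Of the 20111 genes tested, 1449 (7.21%) were called, 721 (3.59%) higher and 728 (3.62%) lower in sdg8 sdg26. In samples of whole shoots, more cells of a type and more RNA per cell cannot be told apart. Of all genes tested, 53.2% lay above wild type. The median fold was 2.11 among the higher and 1.90 among the lower genes. At least 2-fold differences were seen for 397 higher and 321 lower genes, at least 4-fold for 95 and 59, and at least 8-fold for 23 and 18. The arrays of both genotypes did not overlap for 55.2% of all genes, so a lack of overlap says little about 1 gene. The count of calls fell to 459 and 636 without wild-type replicate 1 or 2, and to 636 and 510 without sdg8 sdg26 replicate 1 or 2. Of the 1449 calls, 273 (1.36% of the genes tested; 127 higher, 146 lower) were kept whichever of the 8 arrays was left out, and 262 of these were at least 2-fold.

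Genes called higher were dimmer than those called lower, a difference to which the filter contributes by its construction. Of the 721 higher genes, 182 were not well above background on either wild-type array, and such a gene passed the filter only because it was high in sdg8 sdg26. In the same way, 21 of the 728 lower genes were not well above background on either sdg8 sdg26 array. The mean level over the 8 arrays had a median of -4.15 for the genes called higher, -1.64 for those called lower and -0.83 for all genes. Among the 5028 genes with the lowest mean level, 479 were called higher and 250 lower. For the 19011 genes well above background on all 4 arrays of the comparison the medians were -2.75 for 469 higher and -1.53 for 698 lower genes, and the 4753 with the lowest mean level held 278 higher and 254 lower calls. The test repeated on probes well above background on all 4 arrays called 519 genes higher and 737 lower. Among the 4753 brightest of these genes 12 were called higher and 90 lower, with a median difference of -0.07. For the 4753 dimmest the median difference was 0.09, that of sdg26 against wild type, also slide 4 against slides 1 and 2, was 0.085, and that of sdg8 sdg26 against sdg26, within slide 4, was 0.0041. The part of the slide in the small rise of dim genes was not tested.

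**Figure D1:**
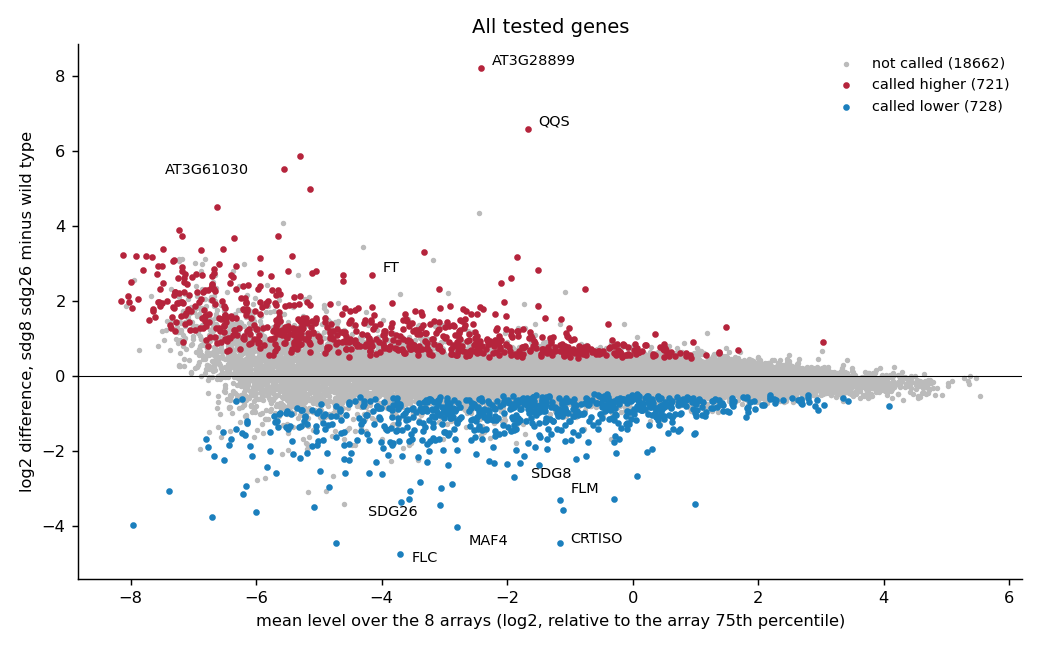
Each point is a gene, with its mean level over the 8 arrays on the x axis and the difference between sdg8 sdg26 and wild type on the y axis, both on the log2 scale; red points were called higher, blue points lower and grey points were not called. The 721 red points reach 8.21 (AT3G28899), while the 728 blue points reach -4.76 (FLC).

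Flowering genes showed a fall of the FLC group together with a rise of FT. The gene lists used here were written with earlier results of these data known. The list of floral repressors had 22 tested members, of which 5 were called lower and 1 higher (27.3% called, against 7.21% of all genes), with a median difference of -0.07 against 0.03 for all genes. All 5 lower members belong to the FLC group. FLC had levels of -5.26 and -6.83 in sdg8 sdg26, where 1 of 2 arrays was well above background, and of -1.33 and -1.23 in wild type (-4.76 ± 0.46, adjusted p = 0.00343). MAF4 went from -0.69 and -0.52 to -4.18 and -5.07 (-4.02 ± 0.27, adjusted p = 0.00107), and FLM from 0.49 and 0.53 to -2.51 and -3.07 (-3.30 ± 0.19, adjusted p = 0.000734). In each of these the groups were far apart. MAF5 (-1.17 ± 0.16) and MAF3 (-0.61 ± 0.13) were lower by less, and MAF2, with 0.77 and 0.71 in wild type and 0.85 and 0.98 in the mutant, did not pass the test (0.17 ± 0.13, adjusted p = 0.451). Dropping wild-type replicate 1 or sdg8 sdg26 replicate 1 ended the call of MAF5 (adjusted p = 0.0517 in both), and dropping any 1 array ended that of MAF3 (0.0681 to 0.144), as did slide as a random block (0.0518). The member called higher was ATC, a relative of TFL1 that delays flowering, with levels of -1.44 and -1.14 against -2.90 and -2.96 (1.64 ± 0.18, adjusted p = 0.00491).

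Among 17 tested floral activators 3 were called higher and 1 lower (23.5% called, against 7.21% of all genes), with a median of 0.22. The 3 higher were FT, AGL42 and XAL1. The calls of AGL42 and XAL1, given below, were each lost with some array left out. FT, the mobile signal from leaf to shoot tip, rose from -5.26 and -5.42 to -2.77 and -2.55, a 6.43-fold difference (2.69 ± 0.19, adjusted p = 0.00133). SOC1, which FLC represses, had overlapping levels of 1.22 and 1.76 in wild type and 1.75 and 1.77 in sdg8 sdg26 (0.27 ± 0.25, adjusted p = 0.529). CO, which activates FT in long days, lay above wild type on both arrays without passing the test (1.08 ± 0.26, adjusted p = 0.0558). SPL4, of the age pathway, was called lower (-1.29 ± 0.26), a call that ended when any array but wild-type replicate 2 was dropped (0.0543 to 0.15).

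Several other MADS-domain genes were dim and higher. Of 99 genes named as MADS-box genes 35 were tested, of which 5 were called higher and 5 lower (28.6% called, against 7.21% of all genes). This count takes in FLC (-4.76), given above, so the share is not that of the other MADS-domain genes alone. AGL42, a relative of SOC1, was not well above background in wild type and was at least 1.85-fold higher (adjusted p = 0.0135; 0.0641 without wild-type replicate 1). AGL6, a floral gene, was likewise at least 1.46-fold higher (adjusted p = 0.00778). AGL42 and AGL6 passed the filter only because they were high in sdg8 sdg26. SHP2, of carpel and fruit, had levels of -6.34 and -6.63 in wild type, where 1 of 2 arrays was well above background, and of -5.27 and -5.16 in sdg8 sdg26 (1.27 ± 0.16, adjusted p = 0.00791), and was the only called member of 8 tested floral organ genes. XAL1, a MADS gene of root and flowering, was 2.49-fold higher (adjusted p = 0.0159). Its call was lost when any wild-type or sdg8 sdg26 array was removed (0.0565 to 0.0813). With the background corrected by normexp from the median background, the calls of AGL6, SHP2 and AGL42 were lost (adjusted p = 0.747, 0.157 and 0.277), and with the local background all 4 genes of this paragraph lay below wild type.

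Of 26 tested chromatin and RNA regulators of FLC 1 was called (3.85%, against 7.21% of all genes), lower: VRN1, a DNA-binding protein of the vernalization response, at 1.67-fold (adjusted p = 0.0153). This call was lost when wild-type replicate 1 or either sdg8 sdg26 array was removed (0.0581 to 0.0754). Of 21 tested SET-domain genes (14.3% called) the lower calls were SDG8 and SDG26 themselves. The other call was SUVH5, of a family that methylates another histone lysine, 1.94-fold higher (adjusted p = 0.0119), lost without either wild-type array or sdg8 sdg26 replicate 1 (0.053 to 0.0553) and below wild type with the local background. Of 27 tested clock genes 1 was called (3.7%), ELF4 of the evening complex (1.82 ± 0.40, adjusted p = 0.043). That call was lost without either wild-type, sdg8 or sdg8 sdg26 array (0.0593 to 0.142) and with slide as a random block (0.0516), and the gene lay below wild type with the local background.

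**Figure D2:**
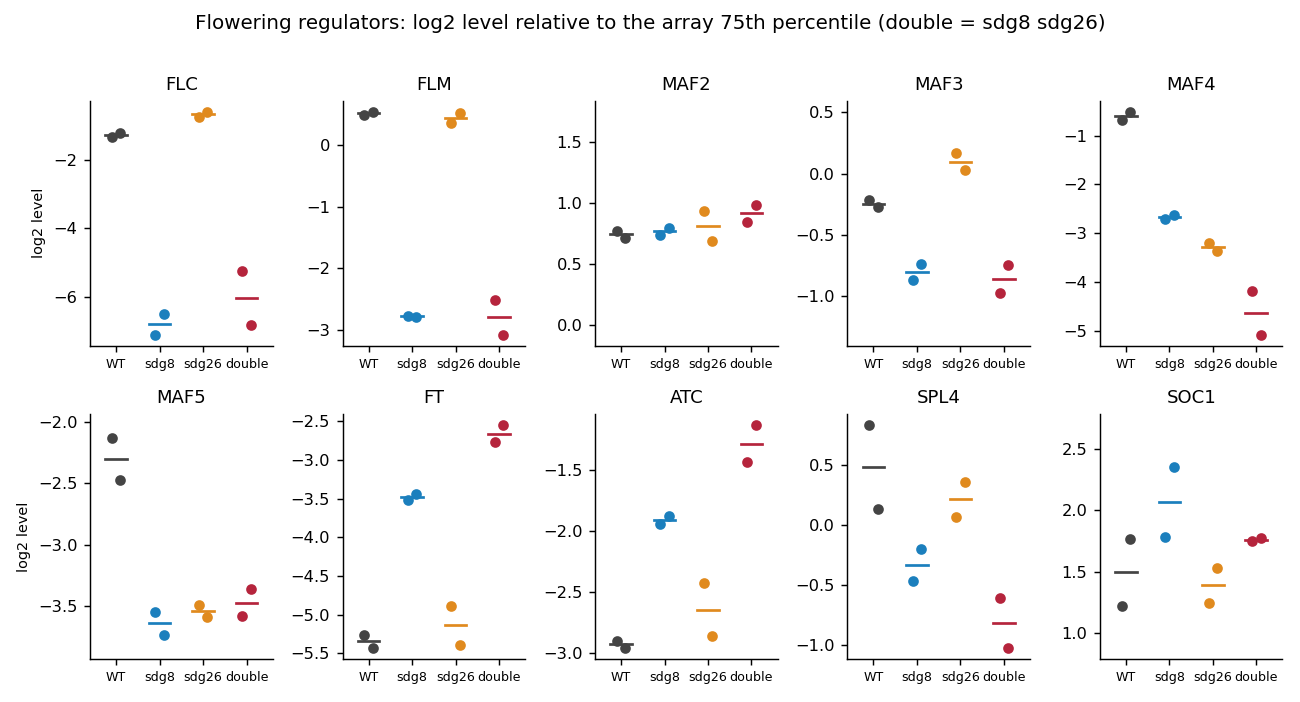
Log2 levels of 10 flowering regulators on every array of the 4 genotypes, with a bar at the mean of the 2 arrays of each. FLC, FLM and MAF4 were low and FT and ATC high on both sdg8 sdg26 arrays, while the arrays for SOC1 overlapped.

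The largest rises started from levels at or near background. AT3G28899 was not well above background in wild type (-6.60 and -7.06) and reached 1.33 and 1.43 in sdg8 sdg26, at least 209-fold higher (adjusted p = 3.2e-05). QQS, a gene found in Arabidopsis that affects starch content, was measurable on all arrays and rose from -4.75 and -4.53 to 2.03 and 1.87, a 96.4-fold difference (6.59 ± 0.21, adjusted p = 4.66e-05). Both moved from the dim end of the array to well above the 75th percentile. AT5G35375, also not well above background in wild type, reached -1.97 and -2.33 and was at least 19.8-fold higher (adjusted p = 0.000216). AT5G53230 reached -2.54 and -2.07, at least 17.8-fold higher (adjusted p = 0.00122), and AT3G61030 reached -2.88 on both arrays, at least 12-fold higher (adjusted p = 4.66e-05). Of the 25 largest rises 3 were well above background in wild type: QQS, AT5G53742 (9.88-fold, adjusted p = 0.000567) and AT2G18193 (9.07-fold, adjusted p = 0.000734). The gene models known here by locus tag alone are given no function.

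Other large rises have names. NDB4, an alternative NAD(P)H dehydrogenase of mitochondria, had levels of -3.84 and -3.86 in sdg8 sdg26 and was at least 6.11-fold higher (adjusted p = 0.00307). GRP20, of the glycine-rich oleosin-like proteins known from the pollen coat, was at least 3.94-fold higher (adjusted p = 0.00339), and FLA5, a fasciclin-like arabinogalactan protein of the cell surface, at least 2.78-fold (adjusted p = 0.00312). AT1G21528 was at least 6.05-fold (adjusted p = 0.00445) and AT2G03130 at least 3.24-fold higher (adjusted p = 0.000898). These 5 genes and those of the preceding paragraph kept their calls whichever array was left out. Those with a fold given as "at least" passed the filter only because they were high in sdg8 sdg26. The filter was not redone with an array left out. With normexp on the local background NDB4, GRP20, FLA5 and AT2G03130 lay below wild type, against a fall of 0.23 in the median of all genes under that setting.

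The largest falls included genes that were bright in wild type. CRTISO, the carotenoid isomerase, went from 0.84 and 0.78 to -2.92 and -4.35 (-4.44 ± 0.41, adjusted p = 0.00311). AT5G60030 went from 2.84 and 2.67 to -1.11 and -0.19, 10.6-fold lower (adjusted p = 0.00698). AT5G05060 went from 1.25 and 1.39 to -1.74 and -2.20 (-3.29 ± 0.17, adjusted p = 0.000567), and AT5G05040 from 0.56 and 0.70 to -2.75 and -3.12 (-3.57 ± 0.15, adjusted p = 0.000199). All 4 lay above the median wild-type level of all genes (-0.84) in wild type. AT4G10600 (9.77-fold, adjusted p = 0.000199), AT1G67620 (7.91-fold, adjusted p = 0.000567), AT3G52680 (7.84-fold, adjusted p = 0.00285) and AT2G42650 (6.46-fold, adjusted p = 0.00277) were still measured on both sdg8 sdg26 arrays. MRD1, a transcript known from mutants with altered methionine levels, went from -0.52 and -0.41 to -3.14 and -3.54 (7.31-fold, adjusted p = 0.000777). The list of methionine metabolism and MRD1 had 16 tested members, and MRD1 alone was called. This share of 6.25% was no higher than the 7.21% of all genes. The list was written with earlier results of these data known.

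Some genes were no longer well above background in sdg8 sdg26. AT1G20120, at -4.36 and -4.63 in wild type, was at least 5.89-fold lower (adjusted p = 0.00218), AT5G42280 at least 5.58-fold (adjusted p = 0.000183) and AT4G09920 at least 1.87-fold (adjusted p = 0.00107). AT1G62085, with a log2 difference of -4.46 ± 0.41 (adjusted p = 0.00311), had 1 of 2 sdg8 sdg26 arrays well above background. All genes of these last 2 paragraphs kept their calls whichever array was left out. AT1G20120, AT5G42280 and AT4G09920 passed the filter only because they were high in wild type.

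**Figure D3:**
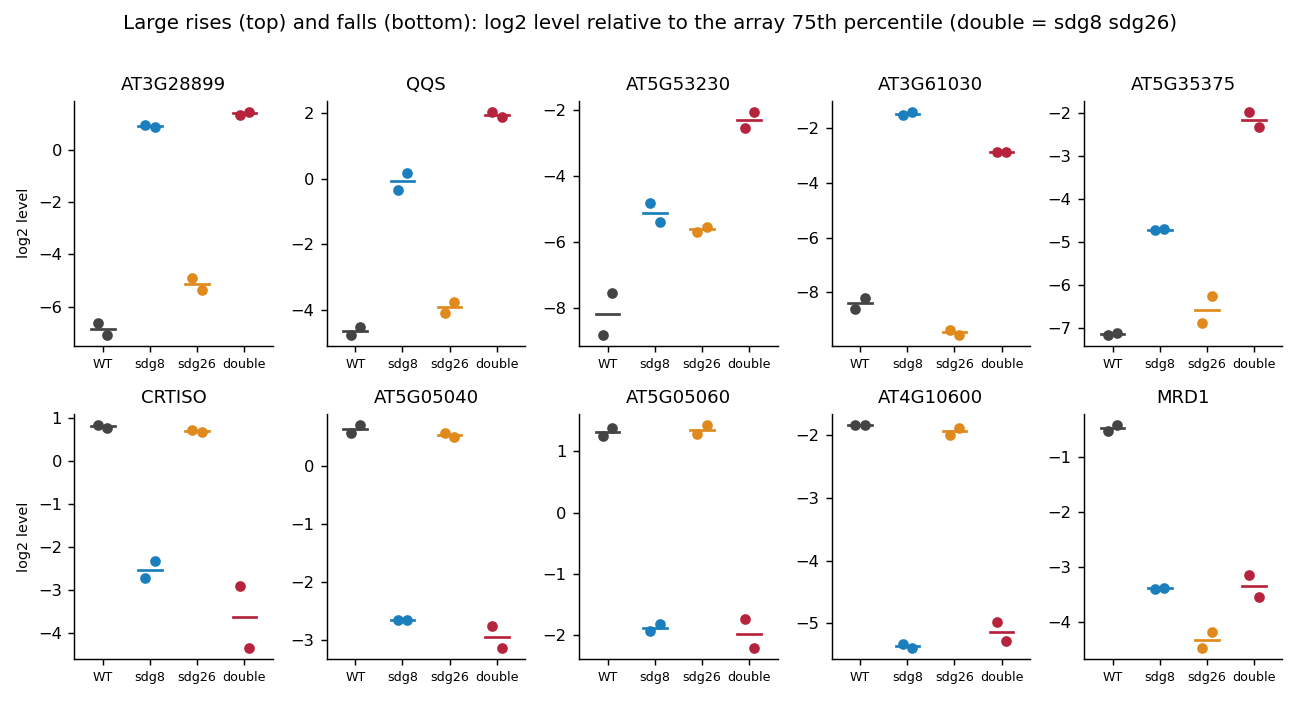
Log2 levels of 5 genes among the largest rises (top) and 5 among the largest falls (bottom) on every array, with a bar at the mean of each genotype. QQS was higher in sdg8 sdg26 (2.03 and 1.87) than on any array of the other genotypes, AT3G61030 was lower than in sdg8, and MRD1 was low in all 3 mutants.

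Some of the largest changes lay beside each other in the order of genes of the TAIR10.1 table. These pairs were picked out after their values were seen. Among the 25 largest falls, AT4G19865 (11.3-fold, adjusted p = 0.00487) and AT4G19870 (10.4-fold, adjusted p = 0.00339) are adjacent, as are AT5G56370 (at least 4.18-fold, adjusted p = 0.00104) and AT5G56380 (8.39-fold, adjusted p = 0.00698). AT5G05040 and AT5G05060 have 1 gene between them that was not tested, and so do AT5G10946 (7.17-fold, adjusted p = 0.00104) and AT5G10950 (6.3-fold, adjusted p = 0.00163). Among the 25 largest rises AT2G18190 (at least 2.11-fold, adjusted p = 0.00268) is adjacent to AT2G18193. These neighbours kept their calls whichever array was left out. AT2G18190 passed the filter only because it was high in sdg8 sdg26, and it lay below wild type with the local background.

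Runs of at least 3 neighbouring genes called in the same direction, with at most 1 untested gene passed over, numbered 2 lower and 1 higher. The lower runs were MAF3, MAF4 and MAF5, and AT1G23950 (2.08-fold, adjusted p = 0.00659), AT1G23960 (4.16-fold, adjusted p = 0.00268) and AT1G23970 (3.28-fold, adjusted p = 0.00307). The members of the second run kept their calls whichever array was left out. The higher run was ERF71, a factor of the response to low oxygen (at least 1.62-fold, adjusted p = 0.0227), AT2G47530 (1.97 ± 0.44, adjusted p = 0.0443, with 1 of 2 wild-type arrays well above background) and AT2G47540 (3.13-fold, adjusted p = 0.00659). The call of ERF71 was lost without wild-type replicate 1 or either sdg8 sdg26 array (0.0825 to 0.094) and that of AT2G47530 without any wild-type, sdg8 or sdg8 sdg26 array (0.0681 to 0.146). With the median background the call of ERF71 was lost (0.242), and with the local background all 3 lay below wild type.

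NLR proteins detect pathogen molecules inside the cell, and EDS1 relays the signal of those with a TIR domain. Of 20 tested NLR genes 9 were called lower and 0 higher, 18 lay below wild type, and the median difference was -0.76. Of all genes 53.2% lay above wild type. The share called was 45%, against 7.21% of all genes, in a list written with earlier results of these data known. LAZ5 went from -1.26 and -1.11 to -3.15 and -3.83 (4.95-fold, adjusted p = 0.00345), RPM1 from -3.55 and -3.33 to -5.01 and -5.26 (3.24-fold, adjusted p = 0.00307) and RRS1 from -1.67 and -1.64 to -2.69 and -2.99 (2.27-fold, adjusted p = 0.00643). In these 3 the call did not depend on any 1 array. The other 6 were CHS1 (3.34-fold), CHS3 (2.7-fold), RPS4 (1.8-fold), RPP13 (1.74-fold), WRR4 (1.73-fold) and ADR1 (1.65-fold), with adjusted p from 0.0196 to 0.0466. With 1 array left out, between 4 and 7 members of the list were called, and 5 without wild-type replicate 1. CHS1 was not called when a wild-type array was dropped (0.0798 and 0.0903), WRR4 without wild-type replicate 2 or either sdg8 sdg26 array (0.0705 to 0.0801), and ADR1 without any wild-type or sdg8 sdg26 array (0.0718 to 0.114). CHS3 was lost without any wild-type, sdg8 or sdg8 sdg26 array (0.0519 to 0.147), RPP13 without any but the sdg8 arrays (0.0532 to 0.135) and RPS4 without any but wild-type replicate 1 (0.074 to 0.166). With the median background ADR1 (0.117) and RPS4 (0.111) were not called. RPP8, RPP1, RLM3 and ADR1-L2 lay below wild type without passing the test, and RPS2 (0.09) and ZAR1 (0.06) lay above it.

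Calls among salicylate defence genes went in both directions. Of 24 tested members 2 were called higher and 1 lower (12.5% called, against 7.21% of all genes), with a median of 0.17. EDS1 was 1.89-fold lower, with -1.45 and -1.46 against -0.65 and -0.42 (adjusted p = 0.0246). DMR6 (1.78-fold, adjusted p = 0.0377) and DLO1 (at least 1.7-fold, adjusted p = 0.0459), which encode enzymes that break down salicylate, were higher. These calls were lost without any wild-type or sdg8 sdg26 array (EDS1, 0.0687 to 0.0993; DMR6, 0.0641 to 0.125; DLO1, 0.0666 to 0.16), for DMR6 and DLO1 also without either sdg8 array, and DLO1 was lost with the median background (0.265) and lay below wild type with the local background. MKK5, a MAP kinase kinase of immune and stomatal signalling, is named here after its values were seen: it went from -1.40 and -1.24 to -3.23 and -3.19 (3.71-fold, adjusted p = 0.00163). PDF1.5, a defensin, was 2.79-fold lower (adjusted p = 0.00628). Both kept the call whichever array was left out.

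In carotenoid synthesis CRTISO stood apart from the other enzymes. Of 22 tested genes for carotenoids and their products 17 lay below wild type, and the median was -0.15. Of the 22, 5 were called lower and 0 higher (22.7% called, against 7.21% of all genes). Besides CRTISO these were LUT1, a hydroxylase of lutein synthesis (1.61-fold, adjusted p = 0.0459), NPQ1, the violaxanthin de-epoxidase (1.5-fold, adjusted p = 0.0483), ABA4 of neoxanthin synthesis (1.58-fold, adjusted p = 0.0489), and BETA-OHASE 2, a carotene hydroxylase (1.49-fold, adjusted p = 0.0288). All 4 changed by less than 2-fold. The calls of NPQ1, ABA4 and BETA-OHASE 2 were lost without any 1 array (0.0558 to 0.183) and that of LUT1 without any wild-type, sdg8 or sdg8 sdg26 array (0.0757 to 0.182), and 1 or 2 members of the list were called with an array left out. With the mean over the probes of a gene LUT1 (0.295) and NPQ1 (0.142) were not called. PSY (-0.18), PDS3 (0.00) and ZDS (-0.16), of the early steps, were not called. Of 37 tested genes of photosystems, antenna and Rubisco 35 lay below wild type and 0 were called, while 53.2% of all genes lay above wild type. The 37 had a median of -0.22 and a lowest value of -0.63. The 5028 genes with the highest mean level had a median of -0.066.

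Of 156 tested cytochrome P450 genes, enzymes that oxidise many plant compounds, 15 were called lower and 6 higher, with a median of -0.11. The share called was 13.5%, against 7.21% of all genes. CYP71B5 (2.67-fold, adjusted p = 0.00261), CYP71B38 (3.5-fold, adjusted p = 0.00533) and CYP71B36 (2.86-fold, adjusted p = 0.00939), of a family with roles in defence compounds, were lower and kept the call whichever array was left out. MAM3, an enzyme that lengthens the methionine chain of aliphatic glucosinolates, went from -2.24 and -2.14 to -0.87 and -1.02 (2.37-fold higher, adjusted p = 0.00791) and kept the call whichever array was left out. It was the only one called of 25 tested aliphatic glucosinolate genes (median -0.06), and 0 of 14 indole glucosinolate and 0 of 27 flavonoid genes were called. Of 40 tested glutathione S-transferases 3 were called higher and 2 lower (12.5% called). Among them were GSTU25 (3.57-fold higher, adjusted p = 0.0207) and GSTU28 (1.95-fold lower, adjusted p = 0.0158). GSTU25 was lost without wild-type replicate 1 or either sdg8 sdg26 array (0.0784 to 0.0834) and GSTU28 without either wild-type array or sdg8 sdg26 replicate 1 (0.0581 to 0.0798). Of 31 tested starch and sugar genes 9.68% were called, all higher. They were QQS, ISA3, a starch-debranching enzyme (2.02-fold, adjusted p = 0.0378), and SWEET12, a sucrose exporter of the phloem (2-fold, adjusted p = 0.0433). The call of SWEET12 was lost without any 1 array (0.0532 to 0.163) and that of ISA3 without any but wild-type replicate 2 (0.0538 to 0.132).

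The hormone lists had between 0% and 10.7% of their members called, against 7.21% of all genes. Of 28 tested jasmonate genes (10.7% called), AOC3 (2.65-fold, adjusted p = 0.0246) and OPR3 (1.57-fold, adjusted p = 0.0327), both of jasmonate synthesis, were higher, and the lipoxygenase gene LOX4 was lower (1.86-fold, adjusted p = 0.0296). Of 29 tested brassinosteroid genes (6.9%) BR6OX1 (2.65-fold, adjusted p = 0.0145) and BR6OX2 (1.43-fold, adjusted p = 0.0459), which encode oxidases of the last steps of synthesis, were higher. Of 42 tested auxin response genes (4.76%) 10 lay above wild type, against 53.2% of all genes, with a median of -0.18, and IAA13 (1.69-fold, adjusted p = 0.0134) and SAUR65 (1.79-fold, adjusted p = 0.0469) were lower. Of 27 tested gibberellin genes (3.7%) GA2OX2, which inactivates gibberellin, was higher (1.93-fold, adjusted p = 0.0206), and 0 of 24 cytokinin and 0 of 27 ethylene genes were called. Each of these calls was lost with some array left out. AOC3 and GA2OX2 were lost without wild-type replicate 1 or either sdg8 sdg26 array (0.0709 to 0.113 and 0.0702 to 0.098), IAA13 when wild-type replicate 1 or else sdg8 sdg26 replicate 2 was dropped (0.0636 and 0.067) and BR6OX1 without either wild-type array or sdg8 sdg26 replicate 1 (0.0515 to 0.0752). OPR3 and BR6OX2 were lost without any 1 array (0.0581 to 0.125 and 0.0776 to 0.172), LOX4 without any wild-type or sdg8 array or sdg8 sdg26 replicate 2 (0.0529 to 0.117), and SAUR65 without any but the sdg8 arrays (0.0719 to 0.175). With the median background AOC3 (0.0595), OPR3 (0.0614) and BR6OX2 (0.422) were not called, and with the local background AOC3 and GA2OX2 lay below wild type.

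Among transcription factors, NAP, a NAC factor that promotes leaf senescence, was lower, with levels of -0.85 and -1.22 against 0.91 and 0.92 (3.85-fold, adjusted p = 0.00763). Of 70 tested NAC genes 4 were called higher and 2 lower (8.57% called, against 7.21% of all genes). NAC085 was at least 2.47-fold higher (adjusted p = 0.00791) and passed the filter only because it was high in sdg8 sdg26. The meristem and leaf identity list and the cold and abscisic acid list below had 3.7% and 3.45% of members called. Of 54 tested WRKY genes 2 were called higher and 1 lower (5.56% called), the last being RRS1, which carries a WRKY domain. WRKY12, a factor of pith cell walls and flowering, was 2.23-fold higher (adjusted p = 0.00438; 0.128 with normexp on the median background) and WRKY48 2.12-fold (adjusted p = 0.0122; 0.0628 without wild-type replicate 1 and 0.0629 without sdg8 sdg26 replicate 2). NAP, NAC085 and WRKY12 kept the call whichever array was left out, and NAC085 and WRKY12 lay below wild type with the local background. STM, which keeps the shoot meristem, was the 1 gene called of 27 for meristem and leaf identity (1.75-fold higher, adjusted p = 0.0136), lost without either wild-type array or sdg8 sdg26 replicate 1 (0.0559 to 0.0595). CBF1, a cold-response factor, was the 1 call of 29 cold and abscisic acid genes (2.3-fold lower, adjusted p = 0.0158) and was not called without wild-type replicate 1 (0.0727) or without sdg8 sdg26 replicate 2 (0.0794).

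Single calls also came from lists of stress and growth, with 3.1% to 5.9% of members called in each, against 7.21% of all genes. SZF1, a zinc-finger gene of salt stress, was lower and the 1 call of 22 rapid stress genes (-1.18 on the log2 scale, adjusted p = 0.0262), and HSFB2A, a heat shock factor, was lower and the 1 call of 17 heat shock genes (-0.57, adjusted p = 0.0437). XTH23, a xyloglucan enzyme, was the 1 call of 26 cell wall genes (0.85, adjusted p = 0.043). CYCD3;1, a D-type cyclin, was the 1 call of 32 cell cycle genes (0.55, adjusted p = 0.0425). Of these 32, 26 lay above wild type, against 53.2% of all genes, with a median of 0.18. HSFB2A and CYCD3;1 were lost without any 1 array (0.0668 to 0.152 and 0.0722 to 0.16), XTH23 without any wild-type, sdg8 or sdg8 sdg26 array (0.0604 to 0.148) and SZF1 without any wild-type or sdg8 sdg26 array (0.0504 to 0.104). Of 29 iron genes 0 were called.

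Markers of other tissues were examined because root or seed remains could enter a seedling sample. Of 25 tested root markers 22 lay above wild type, against 53.2% of all genes, with a median of 0.53. Of the 25, 6 were called higher (24%, against 3.59% of all genes), with adjusted p from 0.0171 to 0.0454. They were EXPA7 (3.27-fold), PRP3 (2.6-fold), EXPA18 (2.52-fold) and RHD2 (1.92-fold) of root hairs, the root hair factor RSL4 (at least 1.99-fold), and CASP1 of the endodermis (1.95-fold). Of the 6, 0 were called without wild-type replicate 1, and from 0 to 7 members of the list were called with 1 array left out. EXPA7 and PRP3 were lost without any wild-type or sdg8 sdg26 array (0.0535 to 0.0933 and 0.0647 to 0.0902), RHD2 without wild-type replicate 1 or either sdg8 sdg26 array (0.0655 to 0.104), RSL4 and EXPA18 without any wild-type, sdg8 or sdg8 sdg26 array (0.0524 to 0.141 and 0.0513 to 0.152) and CASP1 without either wild-type or sdg8 array or sdg8 sdg26 replicate 1 (0.0546 to 0.135). With the median background RHD2 (0.0921), RSL4 (0.223), CASP1 (0.11) and EXPA18 (0.118) were not called, with slide as a random block EXPA18 was not (0.0551), and with the local background RHD2 and RSL4 lay below wild type. The summed linear level of the 25 markers was 19.2 and 19.9 in wild type and 22.8 and 20.7 in sdg8 sdg26. Of 21 tested seed maturation markers 0 were called, with a median of -0.38 and summed levels of 21.2 and 3.79 on the wild-type arrays and 9.68 and 2.75 on the sdg8 sdg26 arrays, so the replicates of each genotype differed more than the genotypes. The part of either list in the other results was not tested.

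**Figure D4:**
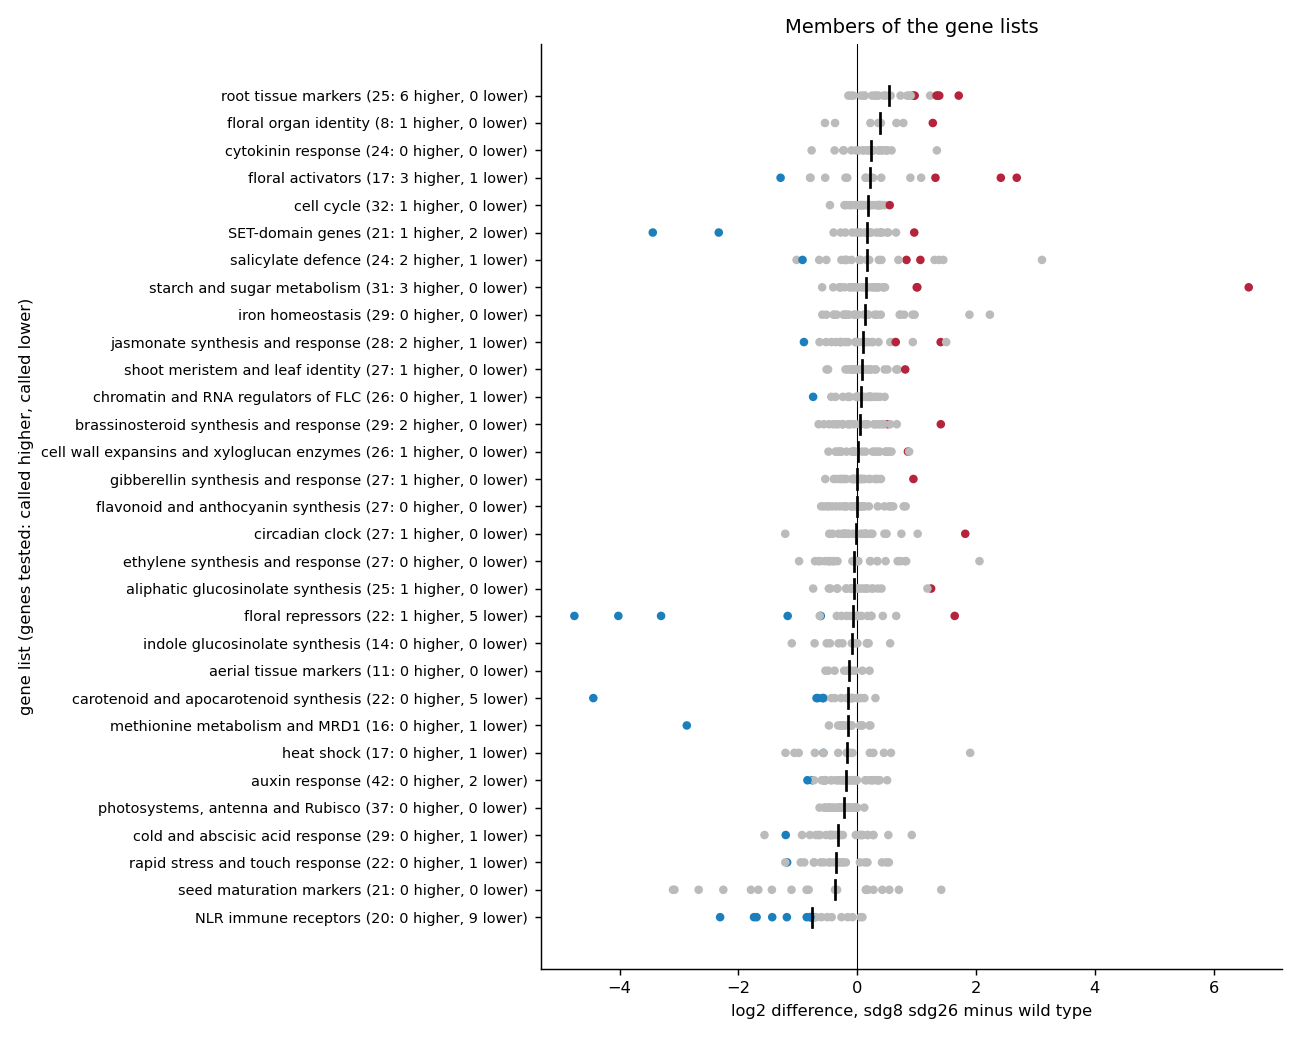
Each row is a gene list with at least 8 tested members and each point a tested member at its log2 difference between sdg8 sdg26 and wild type, with a black bar at the list's median; red members were called higher and blue ones lower. Of the lists shown, NLR immune receptors have the lowest median (-0.76; 9 of 20 lower) and root tissue markers the highest (0.53; 6 of 25 higher).

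The single mutants place these changes. The comparisons of sdg8 and of sdg26 with wild type use the same wild-type arrays as that of sdg8 sdg26, so their values are only set side by side. In the order sdg8, sdg26 and sdg8 sdg26, FLC differed from wild type by -5.53, 0.61 and -4.76. For CRTISO it was -3.34, -0.11 and -4.44, for FT 1.86, 0.21 and 2.69, and for QQS 4.56, 0.72 and 6.59. MAF4 was low in all 3 mutants, with -2.07, -2.68 and -4.02, as was MRD1, with -2.91, -3.86 and -2.87. AT1G67620 (-3.16, 0.19 and -2.98) and MKK5 (-2.01, 0.23 and -1.89) were low in both genotypes that lack SDG8.

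Tested directly, sdg8 sdg26 differed from sdg8 in 57 genes (0.283%), 44 higher and 13 lower, and from sdg26 in 460 genes (2.29%), 155 higher and 305 lower. With 1 array left out these counts ranged from 2 to 96 and from 129 to 381, and 0 of the 57 and 89 of the 460 calls were kept throughout. sdg8 sdg26 and sdg26 shared slide 4, whereas sdg8 lay on slide 3, so slide and genotype cannot be told apart in the first of these. The largest falls below sdg26 included FLC (-5.37, adjusted p = 0.00317), CRTISO (-4.33, adjusted p = 0.00436), AT5G05040 (-3.46, adjusted p = 0.000211) and FLM (-3.23, adjusted p = 0.000749), and the rises above it AT3G61030 (6.58, adjusted p = 2.81e-05), AT3G28899 (6.50, adjusted p = 8.21e-05), QQS (5.87, adjusted p = 0.000105) and FT (2.48, adjusted p = 0.00191). LAZ5 (-2.35), RPM1 (-1.72), RRS1 (-1.47) and MKK5 (-2.13) were also lower than in sdg26, with adjusted p from 0.0016 to 0.00452. All of these held whichever array was left out.

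Against sdg8 the call of SDG26 (-3.47, adjusted p = 0.0182) was the check of the added mutation. QQS was higher than in sdg8 by 2.04 (adjusted p = 0.0201), its levels of 2.03 and 1.87 standing against -0.33 and 0.16. Also higher than in sdg8 were AT5G35375 (2.56), AT5G53742 (2.52), ATCHX8 (2.17), MEE38 (1.77) and AT2G16586 (1.47), all with an adjusted p of 0.0153. MEE38 is named from an embryo-arrest mutant. ATCHX8, a cation/proton exchanger gene, was not well above background in sdg8 or wild type, so its 2.17 is a difference from background. Against wild type ATCHX8 was at least 4.09-fold higher. MAM3 was higher than in sdg8 by 1.71 (adjusted p = 0.0167) and differed from sdg26 by 0.27 without passing the test (adjusted p = 0.501). AT5G53742, MEE38 and AT2G16586 differed from sdg26 as well (3.12, 1.70 and 1.37, with adjusted p = 0.000689, 0.00376 and 0.00329). So did AT5G35375 (4.44, adjusted p = 0.000414) and ATCHX8 (1.31, adjusted p = 0.00796). MEE38 differed from wild type by 0.03 in sdg8 and 0.10 in sdg26, AT2G16586 by -0.16 and -0.06, and AT5G53742 by 0.79 and 0.18, none of which passed the test.

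Lower than in sdg8 were NAP (-2.03, adjusted p = 0.0344), AT1G23110 (-1.50, adjusted p = 0.02), AT3G61030 (-1.42, adjusted p = 0.0301) and AT1G67865 (-1.30, adjusted p = 0.0153). AT3G61030 thus stood at -1.53 and -1.40 in sdg8, at -2.88 on both arrays of sdg8 sdg26, and was not well above background in wild type or sdg26. NAP stood at 0.66 and 1.32 in sdg8 and at 0.49 and 0.17 in sdg26, both above the sdg8 sdg26 arrays. Against sdg8, leaving out sdg8 replicate 1 ended every call named in this and the preceding paragraph (adjusted p up to 0.131 over the arrays left out), and that of NAP was lost without any 1 array (0.0585 to 0.0957). ATCHX8 lay below wild type with the local background.

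**Figure D5:**
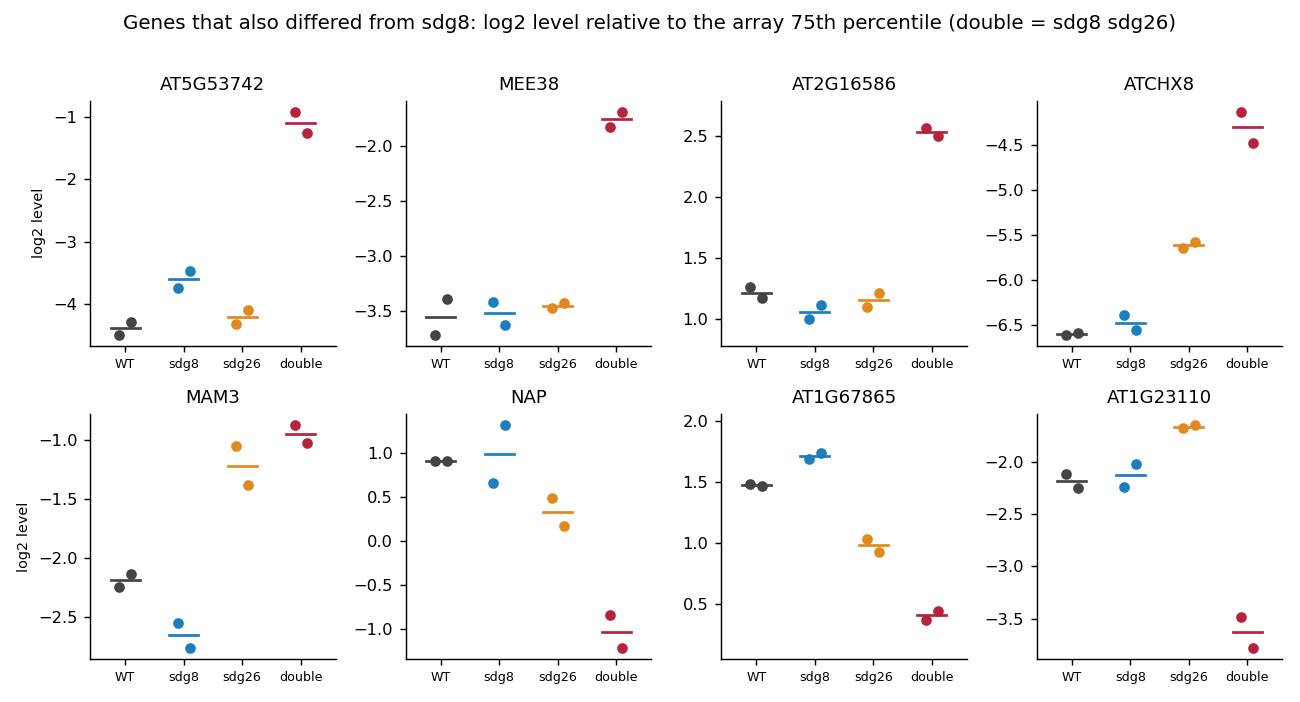
Log2 levels on every array of 8 genes whose level in sdg8 sdg26 also differed from that in sdg8, with a bar at the mean of each genotype. AT5G53742, MEE38 and AT2G16586 were higher on both sdg8 sdg26 arrays than on the other 6, and NAP and AT1G67865 were lower.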

How the data were processed

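Total RNA from the aerial part of seedlings had been labelled with Cy3 and hybridised to 8 Agilent arrays, 2 per genotype, and the sample titles gave each array's group and replicate number. In the series text, 2 experiments with 3 RNA sets per genotype are mentioned but not tied to arrays, so p-values measure the spread between these samples, which may be technical. Per the file headers, the authors made the intensity of each spot in Agilent Feature Extraction 11.5.1.1 (9.1 per the submitters' processing notes), whose processed signal has the background removed. The deposited log2 table equals the scaled log2 processed signal used here apart from a constant per array (-0.0103 to -0.0067). Its columns had medians of -2.37 to -2.29, and it served as an alternative.

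From the processed signal, log2 minus the array's 75th percentile was computed, control spots and outlier flags were left out, and spots of a probe were averaged. Of 43603 probes 34285 matched a gene of the TAIR10.1 table through a RefSeq accession, 9318 had no locus, and 33110 passed the filter. The brightest kept probe stood for a gene (5916 genes had several; of 348 other probes of called genes 24 had the opposite sign). Differences were tested two-sided in R 4.3.3 with lmFit and eBayes of limma 3.58.1, with genotype as the factor. The fit had 4 residual degrees of freedom and a prior of 3.06, and p-values were adjusted by Benjamini-Hochberg over 20111 genes in each comparison. There is no depth on arrays: their number and the signal over background limit the precision. The fit was run on simulated data with independent noise and known changes. These had no slide effect and no background floor, so that run does not bear on either limit. A gene not well above background in a genotype has only a bound, written "at least": the brighter group's mean against, per array of the other, the higher of the lowest signal above background and the probe's own. 117 tested genes had a missing value. A gene with a bound in the comparison with wild type passed the filter only through the brighter genotype. Fits with 1 array left out keep the probes of the filter on all arrays. They assume that the lone array of a genotype varies like the others.

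Named genes were SDG8, SDG26, the FLC group, FT and SOC1; genes among the 25 largest rises and 25 largest falls whose arrays did not overlap; the members of each list or family with the smallest p; runs of neighbours; and genes with the smallest p against each single mutant. The comparison, gene lists and rules were chosen with earlier results of these data known. Alternatives were the deposited table, normexp on the local and on the median background (with the median spot signal), quantile normalization, median centring, other filters, the mean over probes, only 4 arrays, slide as a random block, replicate blocks, an intensity trend, robust variances, and leaving out each array.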

Additional observations from a re-analysis of the deposited data

How the results depend on the processing

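The 1449 calls against wild type (721 higher, 728 lower) moved by over 1.5 times under 5 other settings. They numbered 0 with normexp on the local background (2201 genes had an unadjusted p under 0.05), 2244 (793 higher, 1451 lower; 35.3% higher against 49.8%) with normexp on the median background, 727 (329 and 398) without the filter, 683 (381 and 302) with only the 4 arrays, and 3097 (1588 and 1509) with a crossed replicate block. With 1 array left out they ranged from 459 to 1001 (218 to 525 higher, 201 to 486 lower). Against sdg8, 57 calls became 0 with the local background, 93 with the median background, 0 without the filter, 24 where all 4 arrays had to be above background, 316 with the crossed block, 33 with an intensity trend, and 2 to 96 with 1 array left out. Against sdg26, 460 became 0 with the local background, 263 without the filter, 1087 with the crossed block, and 129 to 381 with 1 array left out. The deposited table gave 1419 calls, quantile normalization 1290, median centring 1409 and slide as a random block 1135. The cause of these moves was not tested.

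The labels do not say what a replicate number marks. Differences between replicates of sdg8 sdg26 correlated over genes at -0.16 with those of wild type, -0.39 with sdg8 and -0.45 with sdg26, while the other genotypes correlated with each other at 0.17 to 0.42 (wild type with sdg8 0.17, with sdg26 0.25; sdg8 with sdg26 0.42). Whether the numbers pair the samples was not tested, and the crossed pairing was chosen after seeing the data. A replicate block left 999 calls (507 higher, 492 lower).

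With normexp on the local background the median of all genes fell by 0.23, and relative to that shift 22 of the named rises lay below wild type: AGL42 by -1.05, XAL1 -0.21, AGL6 -1.29, SHP2 -0.94, ELF4 -0.12, AT2G03130 -0.53, NDB4 -0.14, FLA5 -0.74, AT2G18190 -0.73, GRP20 -0.17, AT2G47540 -0.070, AT2G47530 -0.21, ERF71 -1.04, DLO1 -0.998, AOC3 -0.38, GA2OX2 -0.17, NAC085 -0.72, WRKY12 -0.60, SUVH5 -0.15, RHD2 -0.068, RSL4 -0.90 and ATCHX8 -0.20. No other setting reversed a named gene. Signal over background limits all of these dim genes.

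Of the named calls 42 were lost in some other setting with the local background set aside, and 39 of these were also lost with an array left out. The other 3, AGL6, SHP2 and WRKY12, were lost with the median background. Without the filter 33 were lost (adjusted p up to 0.092), with only the 4 arrays 30 (up to 0.142), with the replicate block 22 (up to 0.0781), with the median background 17 (up to 0.747), with slide as a random block 15 (up to 0.058), with quantile normalization 8 (up to 0.107), with the mean over probes 4 (up to 0.295), with median centring 3 (up to 0.0585), with an intensity trend 2 (up to 0.0918) and with robust variances 1 (0.0513). Slide as a block ended the calls of MAF3, ELF4, AT2G47530, LUT1, NPQ1, ABA4, RPS4, DLO1, BR6OX2, SAUR65, SWEET12, CYCD3;1, EXPA18, HSFB2A and XTH23. The replicate block ended these except ABA4, and also SPL4, BETA-OHASE 2, RPP13, DMR6, OPR3, LOX4, ISA3 and CASP1.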
